A study of Mus musculus with 4 samples.

Results

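Lineage-labelled alveolar type II (AT2) cells of Cdc42 AT2 null mice and of control mice were compared without lung surgery, by single-cell RNA sequencing of 1 library a side. The control library came from Sftpc-CreER, Cdc42flox/+, Rosa26-mTmG mice and the null library from Sftpc-CreER, Cdc42flox/-, Rosa26-mTmG mice, both sham treated, with an age of postnatal day 80 in the labels. Both groups therefore carried the same Cre driver and membrane reporter, both received 4 doses of tamoxifen, and even the control cells could lose 1 Cdc42 allele. The series also holds a control and a null library made 21 days after pneumonectomy (PNX, removal of part of the lung), used here only to place the sham levels. Cre acts in cells that express Sftpc and switches them to GFP, GFP+ cells were sorted, and dead cells were labelled with DAPI. The number of mice behind each library is not stated in the labels.

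A cell was kept as AT2 when it had at least 500 detected genes, at most 20% of its unique molecular identifiers (UMIs, 1 per captured RNA molecule) on mitochondrial genes, Sftpc at 2% of UMIs or more, and 0 UMIs of Ptprc, Pecam1 and Col1a2, the markers of blood, endothelial and mesenchymal cells. This kept 1635 of 2111 control cells and 2545 of 3344 null cells, out of 10077 cells in the series. With the same rule 1931 control PNX and 1396 null PNX cells were kept. Just below the Sftpc limit, between 1.5% and 2% of UMIs, lay 6 control and 22 null cells, and just above it, up to 2.5%, lay 1 and 56. The label's markers were present: Sftpb and Sftpa1 were seen in every kept cell, and Sftpd, Lamp3, Napsa, Slc34a2 and Abca3 in 89.5% to 99.9% of the cells of each library. Free RNA alone gives high shares of the most abundant of them, since in cells with Ptprc and less than 2% Sftpc (median depths of 3081 and 3244.5 UMIs in control and null) Sftpa1 was seen in 96.2% and 99.2% and Sftpb in 88.7% and 95.9%. Lamp3 was seen in 22.6% and 27.9% of those cells and Abca3 in 23.7% and 21.7%, far fewer than among the kept cells. The kept control and null cells shared 4 barcodes. Median depth was 4823 UMIs and 1478 genes per control cell and 5192 UMIs and 1699 genes per null cell, and the mitochondrial share was 4.82% and 4.96%.

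AT2 cells make surfactant, the lipid and protein film that keeps alveoli open, store it in lamellar bodies, and act as progenitors of the thin alveolar type I (AT1) cells through which gas is exchanged. Cells on that path pass through a transitional state marked by simple epithelial keratins. Cdc42 is a small GTPase that cycles between a GDP-bound and a GTP-bound form, and through effectors such as the PAK kinases, N-WASP and the PAR polarity complex it directs actin assembly, membrane traffic and cell polarity.

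Levels are CPM (counts scaled to a common library total), each gene's UMIs summed over the kept cells of a library and divided by that library's total (8099735 UMIs in control sham, 14237233 in null sham). Every ratio is null sham over control sham unless said otherwise, and every interval is an exact 95% interval that covers counting error only. With 1 library a side there is no test, and no difference below has a replicate check. Differences between mice, between library preparations and between genotypes cannot be told apart. In summed cells, more RNA per cell and more cells with the RNA cannot be told apart either, which is why the spread over cells is given separately.

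Cdc42 itself, counted first as the targeted gene (mouse build mm10, chromosome 4, 137319696 to 137357720), was 184 CPM in control sham, 264 in null sham, 225 in control PNX and 382 in null PNX. The sham ratio was 1.44 (95% interval 1.36 to 1.53), so the null library held more Cdc42 tags, not fewer. The labels do not say which exons are floxed, and a 3′ tag outside the deleted stretch checks nothing about the deletion. In cells of the same libraries that carry Ptprc and less than 2% Sftpc, most of them blood cells caught in the sort, Cdc42 was at 705 and 640.1 CPM, a ratio of 0.909 (95% interval 0.808 to 1.02).

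Of 17117 genes in the table, 4892 reached 20 CPM in control or null sham and are called measured. Among them 742 (15.2%) were at least 1.5 times higher in the null library and 208 (4.25%) were lower by the same factor. The median log2 ratio of all measured genes was 0.18. With every ratio divided by the median ratio of 1.13, 397 genes (8.12%) were higher and 352 (7.2%) lower, so the share of calls that were higher went from 78.1% to 53%. Sftpc alone held 128552 CPM in control sham and 69456 in null sham. With totals taken without Sftpc and mitochondrial genes, 570 genes were higher and 309 lower, and the median log2 ratio was 0.07. Counts of list members after centring, that is after division by the median ratio, are given below where they differ from the plain ones. Every list count below is to be read beside the shares of all measured genes. These were 15.2% higher and 4.25% lower, or 8.12% and 7.2% after centring.

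**Figure D1:**
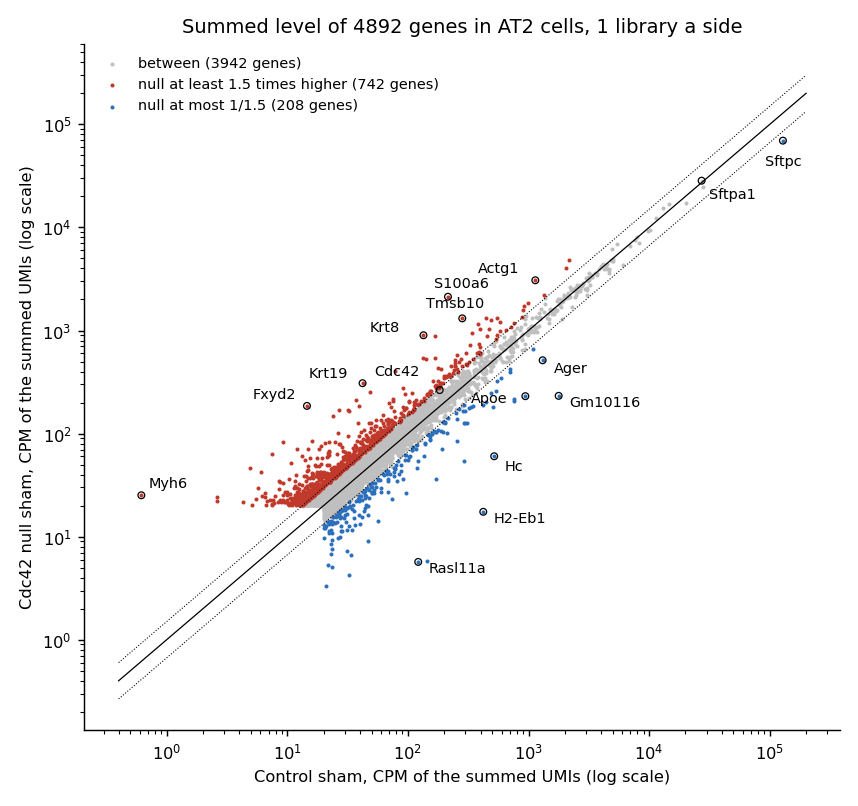
Summed level of each of the 4892 measured genes in control sham (x axis) and null sham (y axis), in CPM on log scales, with 1 point per gene. The solid line marks equal levels and the dotted lines a ratio of 1.5 either way: 742 genes lie above the upper line (red), 208 below the lower (blue), and S100a6, the keratins and Tmsb10 stand far above it while H2-Eb1, Rasl11a, Hc and Gm10116 stand far below.

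The list of Cdc42 partners, effectors and polarity proteins, with 20 measured genes, had 9 members at least 1.5 times higher and 0 lower, or 6 and 0 after centring. Of all measured genes 15.2% were higher and 4.25% lower, or 8.12% and 7.2% after centring. The median log2 ratio of the list was 0.53. Several GTPases were among the higher members. Rhou, an atypical Cdc42 relative, went from 9.88 to 26.8 CPM (ratio 2.72), Rhob from 77.4 to 165 CPM (2.13) and Rhoa, which drives stress fibres and actomyosin contraction, from 245 to 480.4 CPM (1.96). Rac1 and Rhoc, with ratios of 1.43 and 1.45, were short of the limit. Arhgdia, the inhibitor that holds such GTPases in the cytosol, had a ratio of 1.74, the scaffold Iqgap1 1.55, and the Cdc42-binding kinases Cdc42bpa and Cdc42bpb 1.7 and 1.55. The polarity complex stayed close to its control level, with Pard3 at a ratio of 0.972, Prkcz at 1.08 and Prkci at 1.14. The kinase Pak2 had a ratio of 1.26 and the actin nucleation factor Wasl (N-WASP) 1.12.

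Of the 33 lists that are not cell type markers, actin and its regulators had the most measured members and the most past the limit. At least 1.5 times higher were 22 of 29, against 15.2% of all measured genes, and 0 were lower, against 4.25%. After centring the counts were 15 and 0. By share past the limit the transitional list (13 higher and 2 lower of 15) and the clock list (7 and 1 of 10) were above it. The actin list had a median log2 ratio of 0.77 against 0.18 for all measured genes. Of the actins, Actg1 was 1139 CPM in control sham, 3072 in null sham, 1499.8 in control PNX and 4651 in null PNX, a sham ratio of 2.7 (95% interval 2.64 to 2.76). Actb, the more abundant of the pair, was 2051 CPM in control sham, 4011 in null sham, 2726 in control PNX and 5523 in null PNX, a ratio of 1.96. Both null libraries were above both control libraries for each actin. Tmsb10, which binds actin monomers, had the next to largest shift of the list, 282 CPM in control sham, 1312 in null sham, 538 in control PNX and 1223 in null PNX (ratio 4.65 (95% interval 4.45 to 4.85)). Its relative Tmsb4x, far more abundant, was at 12965 and 15534 CPM, a ratio of 1.2, short of the 1.5 limit. Flna, the filament cross-linker, was 31.6 CPM in control sham, 169.9 in null sham, 57.3 in control PNX and 122 in null PNX and had the highest ratio of the list, 5.38. Among tropomyosins, which coat filaments, Tpm4 had a ratio of 3.01, Tpm1 1.69 and Tpm3 1.29. The monomer binders Pfn1 and Cfl1 had ratios of 2.39 and 1.85, and Ezr, which ties actin to the apical membrane, 2.4. Subunits of the branching complex differed less: Arpc2 had a ratio of 1.66, Arpc5 1.61, Arpc1b 1.29 and Arpc3 1.13. Outside the list but among the 15 highest ratios of all genes, the actomyosin regulator Cald1 was 24 CPM in control sham, 148 in null sham, 42.5 in control PNX and 198 in null PNX (ratio 6.18) and the tropomyosin Tpm2 2.59 CPM in control sham, 22.3 in null sham, 4.24 in control PNX and 138 in null PNX (ratio 8.59, 21 and 317 UMIs).

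Promoter sequence is shown for actin genes because the members moved together, and because the CArG box, the motif bound by serum response factor, is a known feature of actin and muscle genes. In the RefSeq promoter table for GRCm38.p6 (250 bases before to 50 after each start), 30 of the 32 list genes were found, with 34 promoters. A CArG box on either strand was in 5 of them (14.7%), against 1.63% of all 32851 promoters and 1.49% of promoters of measured genes. The list was chosen as actin genes, so this share does not depend on the shift. It was 3.48% of the 201 promoters of genes at least 2 times higher and 1.96% of the 51 of genes at least 2 times lower. The matches in the 3 measured genes Actg1, Myl6 and Lima1 are in capitals; Vil1 and Myl9, with the other matches, were below 20 CPM in both sham libraries. Windows run 5′ to 3′ on the gene's strand, all 3 on the minus strand, at chr11:120348446-120348745 for Actg1, chr10:128492960-128493259 for Myl6 and chr15:99820100-99820399 for Lima1.
Actg1: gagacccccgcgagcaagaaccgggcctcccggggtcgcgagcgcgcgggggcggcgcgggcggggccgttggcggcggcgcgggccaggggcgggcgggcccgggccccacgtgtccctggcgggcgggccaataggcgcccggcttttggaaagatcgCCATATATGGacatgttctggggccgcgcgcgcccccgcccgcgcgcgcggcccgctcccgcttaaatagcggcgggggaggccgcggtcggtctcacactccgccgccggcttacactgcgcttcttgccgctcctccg
Myl6: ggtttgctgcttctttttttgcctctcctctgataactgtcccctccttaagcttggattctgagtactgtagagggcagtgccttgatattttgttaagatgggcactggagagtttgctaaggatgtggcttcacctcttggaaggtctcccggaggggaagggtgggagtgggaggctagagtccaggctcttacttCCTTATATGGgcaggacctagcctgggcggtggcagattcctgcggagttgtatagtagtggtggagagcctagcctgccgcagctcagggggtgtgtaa
Lima1: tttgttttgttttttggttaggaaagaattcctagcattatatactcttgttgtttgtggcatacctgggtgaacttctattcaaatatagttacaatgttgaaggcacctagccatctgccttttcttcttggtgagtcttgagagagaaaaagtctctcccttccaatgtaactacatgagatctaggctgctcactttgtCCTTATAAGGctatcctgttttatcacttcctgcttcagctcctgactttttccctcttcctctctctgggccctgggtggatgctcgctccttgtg
The match begins 90 bases before the start in Actg1, 50 before in Myl6 and 47 before in Lima1. Another Myl6 promoter, at chr10:128493837-128494136, had no match and is not printed. Myl6, a myosin light chain, was 981 CPM in control sham, 1862 in null sham, 1469 in control PNX and 2424 in null PNX (ratio 1.9), and Lima1, which stabilises filaments, went from 29.9 to 46.4 CPM (ratio 1.55). The other higher members that have a window in the table had no such letters in it, and a match is a description of letters only.

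Markers of the transitional epithelial state held the highest median of these 33 lists, 1.95 on the log2 scale. Of 15 measured members 13 were at least 1.5 times higher and 2 lower, or 10 and 2 after centring. All 4 simple keratins of the list were higher. Krt8 was 135 CPM in control sham, 899 in null sham, 195 in control PNX and 2018 in null PNX, a sham ratio of 6.68 (95% interval 6.28 to 7.11), and its partner Krt18, with which it forms filaments, 167 CPM in control sham, 881 in null sham, 198 in control PNX and 1860 in null PNX, a ratio of 5.26 (95% interval 4.98 to 5.57). Krt19 was 42.1 CPM in control sham, 308 in null sham, 54.7 in control PNX and 948 in null PNX (ratio 7.32) and Krt7 48.1 CPM in control sham, 252 in null sham, 84.9 in control PNX and 647 in null PNX (ratio 5.23). For all 4 keratins the order was the same: control sham lowest, then control PNX, then null sham, and null PNX highest. S100a6, a calcium-binding protein of spreading epithelium, was 215 CPM in control sham, 2125 in null sham, 329 in control PNX and 2537 in null PNX, a sham ratio of 9.89 (95% interval 9.42 to 10.4). Lgals3, the lectin galectin-3, was 132 CPM in control sham, 539.6 in null sham, 159 in control PNX and 769.7 in null PNX (ratio 4.08). Sfn, an epithelial 14-3-3 protein, was 32.6 CPM in control sham, 164 in null sham, 35.5 in control PNX and 611 in null PNX (ratio 5.05), and Anxa1, a membrane-binding annexin, 39 CPM in control sham, 185 in null sham, 52.1 in control PNX and 903 in null PNX (ratio 4.74).

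Cldn4, a tight-junction claudin, had 0 UMIs in control sham and 78 in null sham, or 5.48 CPM, at least 14.8-fold higher when the control is set at 3 counts, and it was at 160.1 CPM in null PNX. Clu, a secreted chaperone, was 70.2 CPM in control sham, 198 in null sham, 91.7 in control PNX and 2152 in null PNX, a sham ratio of 2.82. The growth factor Areg had a sham ratio of 1.62 with levels of 46.1 and 74.5 CPM, and Sprr1a, Plaur, Fosl1, Tnip3, Hbegf and Itgb6 stayed under 20 CPM in both sham libraries. Cdkn1a (p21) and the stress regulator Nupr1 were the 2 lower members, with ratios of 0.569 and 0.611.

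Windows of the adjacent keratin genes Krt8 (chr15:102004293-102004592, minus strand) and Krt18 (chr15:102027966-102028265, plus strand) are shown because this pair carries the epithelial shift, and that of F3 (chr3:121723287-121723586, plus strand) because it holds AP-1 letters. AP-1 was searched as TGANTCA and TEAD as GGAATG on both strands. Neither motif, nor a CArG box, was in the keratin windows, and F3 has a pair of AP-1 matches, in capitals, beginning 146 and 135 bases before the start.
Krt8: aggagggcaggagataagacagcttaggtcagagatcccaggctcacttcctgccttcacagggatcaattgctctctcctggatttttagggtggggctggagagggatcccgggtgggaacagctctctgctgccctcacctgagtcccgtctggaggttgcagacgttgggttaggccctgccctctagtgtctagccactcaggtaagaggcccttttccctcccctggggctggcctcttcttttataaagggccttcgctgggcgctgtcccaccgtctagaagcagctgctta
Krt18: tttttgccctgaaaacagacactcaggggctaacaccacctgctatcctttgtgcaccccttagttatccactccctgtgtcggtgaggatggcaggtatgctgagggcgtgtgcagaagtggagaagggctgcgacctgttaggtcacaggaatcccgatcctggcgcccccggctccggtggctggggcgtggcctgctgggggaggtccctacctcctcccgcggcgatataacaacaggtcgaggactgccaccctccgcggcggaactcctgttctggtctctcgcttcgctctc
F3: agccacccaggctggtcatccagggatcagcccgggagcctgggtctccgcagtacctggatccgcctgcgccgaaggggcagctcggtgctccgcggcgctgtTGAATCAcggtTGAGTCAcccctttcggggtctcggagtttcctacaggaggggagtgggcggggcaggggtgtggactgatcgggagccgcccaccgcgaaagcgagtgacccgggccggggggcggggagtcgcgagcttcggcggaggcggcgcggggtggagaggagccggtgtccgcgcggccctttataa
F3, which encodes tissue factor and starts the clotting cascade, was 6.05 CPM in control sham, 42.1 in null sham, 13.8 in control PNX and 130.5 in null PNX (ratio 6.97 (95% interval 5.2 to 9.52)). AP-1 letters were in 13.9% of the 201 promoters of genes at least 2 times higher, 3.92% of the 51 promoters of genes at least 2 times lower, 4.90% of promoters of measured genes and 7.81% of all promoters. TEAD letters were in 11.9% of the first set, 29.4% of the second (15 promoters), 11.8% of promoters of measured genes and 14.7% of all. No match in a window says only that these letters are not in those 300 bases.

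The 15 highest ratios of all measured genes included several others with defined roles. Myh6, the alpha myosin heavy chain of heart muscle, had 5 UMIs in control sham and 359 in null sham, or 0.617 and 25.2 CPM (ratio 40.8 (95% interval 17.3 to 127)), with 1.62 and 8.59 CPM in the PNX pair. Fxyd2, a regulator of the sodium pump, was 14.6 CPM in control sham, 186 in null sham, 19.2 in control PNX and 69 in null PNX (ratio 12.7 (95% interval 10.6 to 15.5)). Lamb3, a chain of the epithelial laminin-332, was 7.41 CPM in control sham, 62.7 in null sham, 33.6 in control PNX and 154 in null PNX (ratio 8.47 (95% interval 6.52 to 11.2)). The microtubule-binding ubiquitin ligase Mid1 went from 4.94 to 46.1 CPM (ratio 9.34). Its ratio was alike, 9.59, in cells with Ptprc and less than 2% Sftpc, so the difference was not particular to AT2 cells. The Ras-like GTPase Rasd2 went from 9.14 to 82.1 CPM (ratio 8.99). Both PNX libraries were low for Rasd2, at 18.4 and 15.5 CPM. The cytokine Tnfsf9 was 2.59 CPM in control sham, 24 in null sham, 6.16 in control PNX and 34.6 in null PNX (ratio 9.27, 21 and 342 UMIs).

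Sftpc, the most abundant transcript, was the 1 surfactant gene of 10 measured that was past the limit, 128552 CPM in control sham, 69456 in null sham, 123177 in control PNX and 75997 in null PNX, a sham ratio of 0.54 (95% interval 0.539 to 0.542). The 2 null libraries lay together below the 2 control libraries. Sftpc levels also chose the cells, so this ratio depends on where the limit lies: it was computed among cells that all had 2% or more. The other surfactant proteins were level or slightly higher, with Sftpb at 14669 and 16742 CPM (ratio 1.14), Sftpa1 at 27225 and 28416 (1.04) and Sftpd at 3179 and 3321 (1.04). Genes of the lamellar body split: Lamp3 had a ratio of 1.23, the protease Napsa 1.26 and the lipid pump Abca3 0.772.

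The list of other AT2 genes and transcription factors had a median log2 ratio of -0.18, with 2 of 21 measured members higher and 3 lower, or 0 and 5 after centring. Nkx2-1, the lung lineage factor, had a ratio of 0.986, Etv5 of 1.01 and Gata6 of 1.05. Cebpa, a factor of AT2 lipid and surfactant genes, was 284 CPM in control sham, 448 in null sham, 317 in control PNX and 279 in null PNX (ratio 1.58). Hc, complement component C5, was the lowest of the list and among the lowest of all genes, 519 CPM in control sham, 60.3 in null sham, 389 in control PNX and 37.4 in null PNX, a sham ratio of 0.116 (95% interval 0.108 to 0.125), with both null libraries far below both controls. Chil1, a chitinase-like protein, was 307 CPM in control sham, 127 in null sham, 264 in control PNX and 475 in null PNX (ratio 0.413), in the opposite order in the PNX pair, and Chia1, an acidic chitinase, 512 CPM in control sham, 179 in null sham, 644 in control PNX and 127 in null PNX (ratio 0.35). S100g, a calcium carrier, had a ratio of 0.721 and Lyz2 of 0.882.

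AT1 genes did not shift as a list, with 5 of 17 measured members higher, 3 lower and a median log2 ratio of 0.04. Ager, the receptor by which AT1 cells are most often marked, was lower, 1309 CPM in control sham, 514 in null sham, 1457 in control PNX and 1261 in null PNX, a sham ratio of 0.393 (95% interval 0.381 to 0.405). In the PNX pair its ratio was 0.866. Hopx, an AT1 homeobox cofactor, was at 31.2 and 16.7 CPM (ratio 0.535) and Sec14l3 had a ratio of 0.595. The higher members were Krt7, S100a14 (5.19), Timp3 (3.86), Clic5 (2.42) and Emp2 (1.73). Pdpn, Cav1, Rtkn2, Akap5, Igfbp2 and Spock2 were under 20 CPM in both libraries. AT1 markers therefore did not move one way, and the widely used marker Ager was lower while Clic5 and Timp3 were higher.

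**Figure D2:**
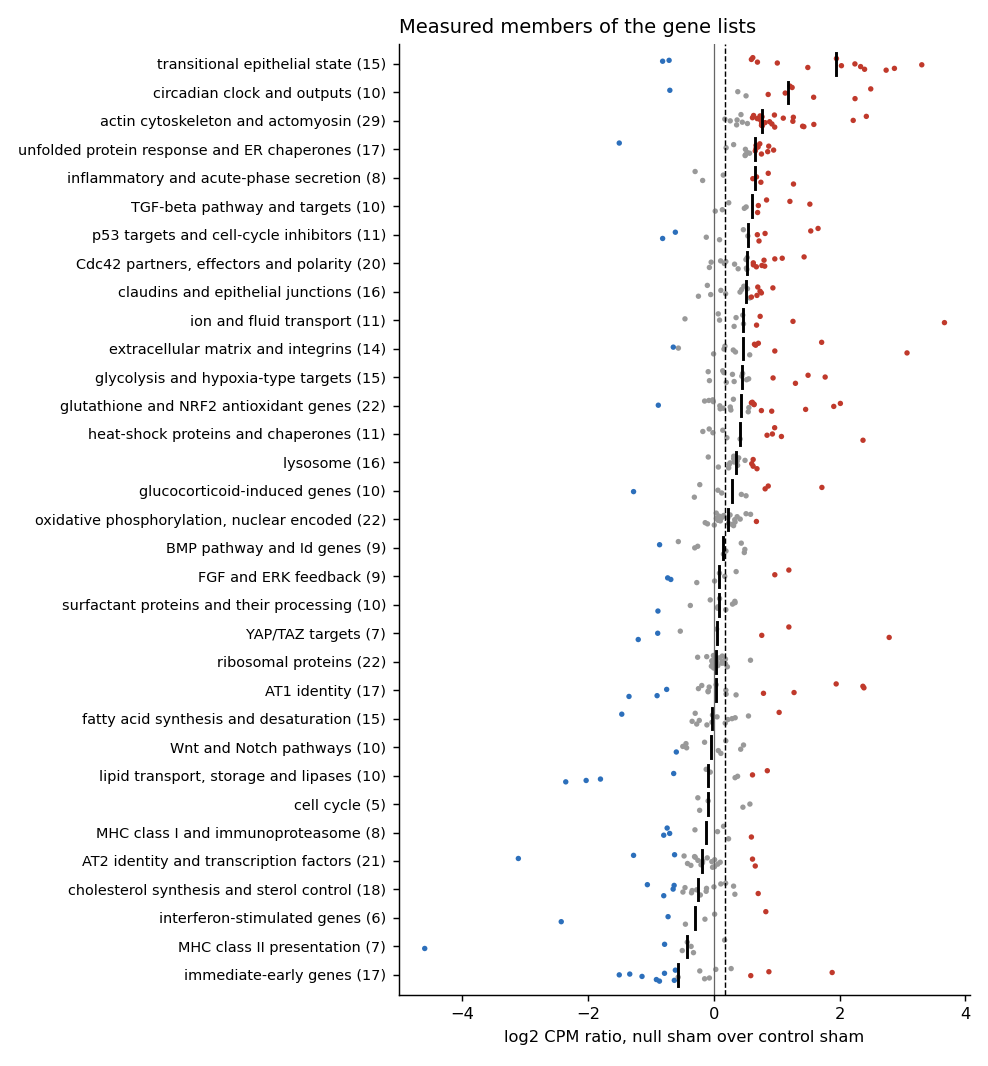
The log2 CPM ratio of every measured member (1 point each) of the 33 gene lists that are not cell type markers, ordered by median (black bars), with the number of measured members in brackets. Red points are at least 1.5 times higher and blue points lower by that factor, the grey line is 0 and the dashed line the median of all 4892 measured genes, 0.18; the transitional, clock and actin lists lie furthest right and immediate-early genes furthest left.

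Lipid genes were read in 3 lists. Fatty acid synthesis and desaturation stayed level, with 1 of 15 measured members higher, 1 lower and a median log2 ratio of -0.02; Scd1, the main desaturase, was at 3153 and 3089 CPM and Fasn had a ratio of 0.927. The 2 members past the limit were Thrsp (0.362) and Agpat2 (2.05). Cholesterol synthesis and sterol control was lower in 4 of 18 measured members and higher in 1, or lower in 6 and higher in 0 after centring. Among its lower members were Insig1 (0.481), Hmgcs1 (0.576) and Lss (0.639), all responsive to cellular sterol. The list of lipid transport, storage and lipases went both ways, with 2 of 10 measured members higher and 4 lower, or 1 and 4 after centring. Its lowest ratios belonged to apolipoproteins and a lipase. Apoe was 941 CPM in control sham, 231 in null sham, 545 in control PNX and 100.3 in null PNX, a sham ratio of 0.245 (95% interval 0.235 to 0.255), Apoc1 751 CPM in control sham, 215 in null sham, 642 in control PNX and 135 in null PNX (ratio 0.287) and Lpl, lipoprotein lipase, 46.4 CPM in control sham, 9.06 in null sham, 22 in control PNX and 1.78 in null PNX (ratio 0.195). For all 3 the null libraries lay below the control libraries. Cd36, a fatty acid carrier, had a ratio of 1.53, and Pnpla2, the lipase that opens lipid droplets, 1.8.

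Chaperones of the endoplasmic reticulum were mildly higher as a list, 9 of 17 measured against 1 lower, but 3 against 1 after centring. Calr had a ratio of 1.69, Herpud1 1.66, Pdia4 1.81, Creld2 1.83 and Sdf2l1 1.94, and Atf3 was the lower member (0.352). Hspa5 (BiP), the central chaperone of the list, had a ratio of 1.41. Calr, Pdia4, Creld2, Sdf2l1 and Hspa5 were all higher in control PNX than in null sham, as with Sdf2l1 at 12.7 CPM in control sham, 24.7 in null sham, 42.7 in control PNX and 44.3 in null PNX. Cytosolic heat-shock genes were higher in 5 of 11 measured members. Hspb1 (HSP27), which also binds actin, was 77.8 CPM in control sham, 403 in null sham, 188 in control PNX and 312 in null PNX (ratio 5.18 (95% interval 4.77 to 5.63)), and Hspa8 579 CPM in control sham, 1219.8 in null sham, 905 in control PNX and 1059.9 in null PNX (ratio 2.11). The stress-inducible Hspa1a and Hspa1b were at 3.09 and 2.11 CPM in null sham.

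Glutathione and NRF2-type antioxidant genes were higher in 9 of 22 measured members and lower in 1, or 4 and 1 after centring. Srxn1, which repairs peroxiredoxins, went from 8.52 to 34.6 CPM (ratio 4.06), Gpx2 from 21.4 to 58.9 CPM (2.76) and Gclm, a subunit of glutathione synthesis, from 18.5 to 35.1 CPM (1.9). Gstp1 was 141 CPM in control sham, 527 in null sham, 285 in control PNX and 219 in null PNX, a sham ratio of 3.75 and lower than its control in the PNX pair. Lysosomal genes gave 4 of 16 higher and 0 after centring, and nuclear-encoded oxidative phosphorylation 1 of 22 and 0 after centring. Of 22 ribosomal proteins 0 were past the limit, with a median log2 ratio of 0.04.

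Immediate-early genes had the lowest median of the 33 lists, -0.57, with 8 of 17 measured members lower and 3 higher, or 9 and 2 after centring. Ier2 was 444 CPM in control sham, 201 in null sham, 168 in control PNX and 274 in null PNX (ratio 0.453), Fos 299 CPM in control sham, 164 in null sham, 159 in control PNX and 278 in null PNX (0.549), Jun 346 CPM in control sham, 184 in null sham, 201 in control PNX and 338 in null PNX (0.531) and Nr4a1 69 CPM in control sham, 27.3 in null sham, 14.9 in control PNX and 32.2 in null PNX (0.396). Control sham was the highest of the 4 libraries for Ier2, Fos, Jun and Nr4a1, with null PNX close to it for Fos and Jun. Klf2 and Klf6 moved the other way, with ratios of 3.69 and 1.84. Such genes respond within minutes to handling and tissue digestion, and the time each lung spent in digestion is not given beyond the shared protocol, so its part in these differences was not tested.

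MHC class II genes were lower in 2 of 7 measured members and 4 of 7 after centring. H2-Eb1, the class II beta chain E, was 422 CPM in control sham, 17.4 in null sham, 31.5 in control PNX and 26 in null PNX with a ratio of 0.0413 (95% interval 0.0362 to 0.047). Control sham was the one library of 4 with a high level. The chains that pair in the other class II molecule differed far less, H2-Aa with a ratio of 0.799 and H2-Ab1 of 0.706, as did the invariant chain Cd74 (0.779). Class I genes were mixed, 1 of 8 measured higher and 3 lower, or 0 and 3 after centring, with B2m lower (0.615), H2-T23 lower (0.576) and H2-D1 higher (1.51). Of 6 measured interferon-stimulated genes 1 was higher and 2 lower, or 1 and 3 after centring. Ifi27l2a was lowest, 291 CPM in control sham, 54.2 in null sham, 52.1 in control PNX and 25.5 in null PNX (ratio 0.186), and Ly6e was higher (1.77).

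Clock genes and their outputs showed opposed shifts of both arms, with 7 of 10 measured members higher and 1 lower and a median log2 ratio of 1.17. Dbp, an output activated by BMAL1, was 37.4 CPM in control sham, 211 in null sham, 70.1 in control PNX and 12.5 in null PNX (ratio 5.64 (95% interval 5.01 to 6.37)), Nr1d1 (REV-ERB alpha) 14.8 CPM in control sham, 70.4 in null sham, 116 in control PNX and 22.7 in null PNX (4.76), Tef 28.8 CPM in control sham, 68.3 in null sham, 36.6 in control PNX and 5.52 in null PNX (2.37) and Per3 30.1 CPM in control sham, 66.2 in null sham, 32.6 in control PNX and 9.57 in null PNX (2.2). Genes of the opposite phase were low in null sham although under 20 CPM: Arntl (BMAL1) had 141 UMIs in control and 9 in null, 17.4 and 0.632 CPM, Nfil3 was at 12.1 and 2.11 CPM, and Npas2 had 67 UMIs against 0, a level at least 39.3-fold lower when the null is set at 3 counts. Dbp, Tef and Per3 were lowest of the 4 libraries in null PNX. The labels give no time of day for collection, and its part in these values was not tested.

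Matrix, junction and signalling lists held smaller shifts. Of 14 measured matrix and integrin genes 6 were higher and 1 lower, or 3 and 2 after centring, led by Lamb3 and Timp2 (3.29). Junction genes gave 6 of 16 higher and 1 after centring, among them Dsp (1.92) and F11r (1.69), while Cldn18, the alveolar claudin, had a ratio of 0.844. In the TGF-beta list 5 of 10 were higher and 0 lower (3 after centring): Thbs1, which activates the ligand, had a ratio of 2.89, Bhlhe40 2.31, Pmepa1 1.79, the activating integrin chain Itgav 1.64 and the ligand Tgfb1 1.62, from 22.6 to 36.7 CPM. The receptor Tgfbr2 had a ratio of 1.02, and the target Fn1 was at 5.2 CPM in null sham.

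YAP/TAZ targets had 3 of 7 measured members higher and 2 lower, or 3 and 3 after centring. Ctgf and Cyr61, the most used read-outs, were at 0.492 and 5.06 CPM in null sham against 0.864 and 8.64 in control sham, and Amotl2 and Tead1 were lower, with ratios of 0.435 and 0.539. F3, Ccnd1 (2.29) and Myof (1.7) were the higher members. Proliferation genes were scarce: Mki67 had 21 UMIs in control and 12 in null, 5 cell-cycle genes reached 20 CPM and 0 of them were past the limit. Of the p53 list, 5 of 11 were higher and 2 lower, or 3 and 2 after centring. Gdf15 (3.17), Perp (2.91) and Bax (1.62) were among the higher, and Cdkn1a and Btg2 (0.655) were the lower members. FGF feedback gave 2 of 9 higher and 2 lower (Spry1 0.623 and Spry2 0.601), Wnt and Notch 0 of 10 higher and 1 lower (Nkd1 0.662), or 0 and 4 after centring, and the BMP list 0 of 9 higher and 1 lower (Bmp4 0.55), or 0 and 2 after centring.

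How evenly the shifts spread over cells was read after thinning each cell to 2000 UMIs, which left out 82 control and 87 null cells and kept 1553 and 2458. Taken as a sum, the actin list moved in nearly the whole population. The 32 list genes made up 2.05% of UMIs in the median control cell and 3.05% in the median null cell, and 90.3% of null cells were above the control median. A null cell drawn with a control cell was the higher of the pair in 83.5% of pairs, with ties counted equally to each side. Tmsb4x, with a ratio of 1.2, held 12965 of the list's 21414 CPM in control sham. For single genes the share of pairs varied, at 82.8% for Tmsb10, 72.0% for Actb and 58.8% for Arpc2. Sftpc moved as a whole as well: the 10th, 50th and 90th percentiles of its share of UMIs were 6.91%, 12.9% and 17.3% in control cells and 3.35%, 6.65% and 10.55% in null cells, and 1.42% of null cells exceeded the control median. The other surfactant genes overlapped almost fully, with medians of 5.15% and 5.65%.

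The 4 keratins showed a long tail, and they too were higher in most null cells. They were at 0 in 54.3% of control cells and 14.1% of null cells, and 85.9% of null cells were above the control median of 0. A null cell was the higher in 80.3% of pairs, ties counted equally. The median null cell had 0.1% of its UMIs on the keratins, and the 90th percentile was 0.1% in control and 0.4% in null. Of null cells 45.3% were above the control's 90th percentile, against 54.2% for the actin list. A cell at 0 after thinning may still hold the transcripts. For S100a6 38.7% of null cells had no UMI after thinning while the 90th percentile was 0.55% of UMIs. Ribosomal genes, for comparison, had a median of 5.25% in both libraries.

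**Figure D3:**
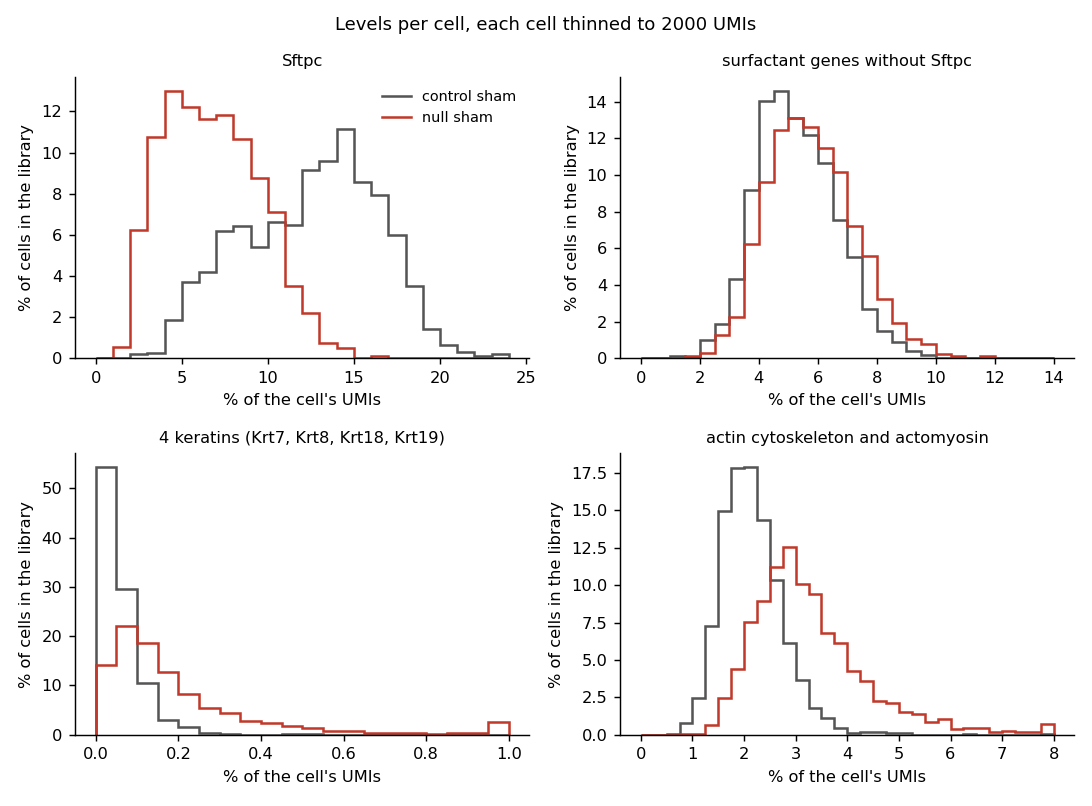
Distribution over cells of the share of a cell's UMIs (x axis, %) held by Sftpc, the other 11 surfactant genes, 4 keratins and the 32 actin genes, as the percentage of cells in each bin (y axis), for 1553 control (grey) and 2458 null cells (red) thinned to 2000 UMIs; the last bin also holds all higher cells. Sftpc, which also chose the cells, and actin shift as a whole, and the other surfactant genes overlap. For the keratins most null cells lie above the control median, with many near 0 and a tail to the right.

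Among 428 genes with at least 300 CPM, 74 were higher past the limit, and a null cell was above a control cell in a median of 62.7% of pairs (55.5% to 83.1%). For the 22 lower genes the median was 36.2% (8.25% to 43.1%), and for the 332 others 50.6%. All 74 and all 22 kept their side of the 1.5 limit when the 10% of cells highest for the gene were left out of each library. Much of this is built in, since the library with the lower level tended to lose the larger share of its UMIs. After thinning, the 10% highest cells held a median of 41.9% of UMIs in control and 33.4% in null for the 74. For the 22 the medians were 35.3% and 45.0%. Among less abundant genes a single cell could hold a large part of a gene's UMIs. Retnla, with a ratio of 0.0398, had 63.9% of its control UMIs in 1 cell, and Pf4 34.5% of its null UMIs in 1 cell, and neither is counted among the highest or lowest genes named here.

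A gene spread evenly over cells of equal depth gives a share of cells with a UMI close to that of a Poisson distribution of the same mean. The higher genes ranged from close to that share to far under it. Tmsb10 was seen in 38.8% of control cells and 86.9% of null cells, against 92.2% for Poisson. Dbp (6.37% and 33.8%, Poisson 35.1%), Cald1 (4.7% and 25.4%, 26.4%), Lamb3 (0.966% and 11.7%, 12.1%), Rasd2 (1.74% and 14%, 14.4%) and Mid1 (1.35% and 9.64%, 9.56%) lay close to it, though at means as low as those of Lamb3, Rasd2 and Mid1 the share departs from Poisson only where few cells hold many UMIs. Hspb1 (45% in null, Poisson 52%), Gstp1 (51.7%, 60.5%) and Lgals3 (51.8%, 61.5%) lay further under it.

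S100a6, the keratins and Fxyd2 lay well under the Poisson share. S100a6 was seen in 14.2% of control cells and 61.3% of null cells where Poisson gives 96.9%, and the highest 10% of null cells held 53% of its UMIs. Krt8 was seen in 21% and 63.1% (Poisson 78.7% in null), Krt18 in 24.3% and 55.3% (76.6%), Krt7 in 7.41% and 26.1% (34.8%) and Fxyd2 in 2.38% and 17.7% (27.9%). Of the lower genes, Gm10116, H2-Eb1, Hc and Rasl11a were seen in 35.4%, 3.05%, 12.3% and 0.732% of null cells, against 94.1%, 49.7%, 59.3% and 18.7% of control cells.

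**Figure D4:**
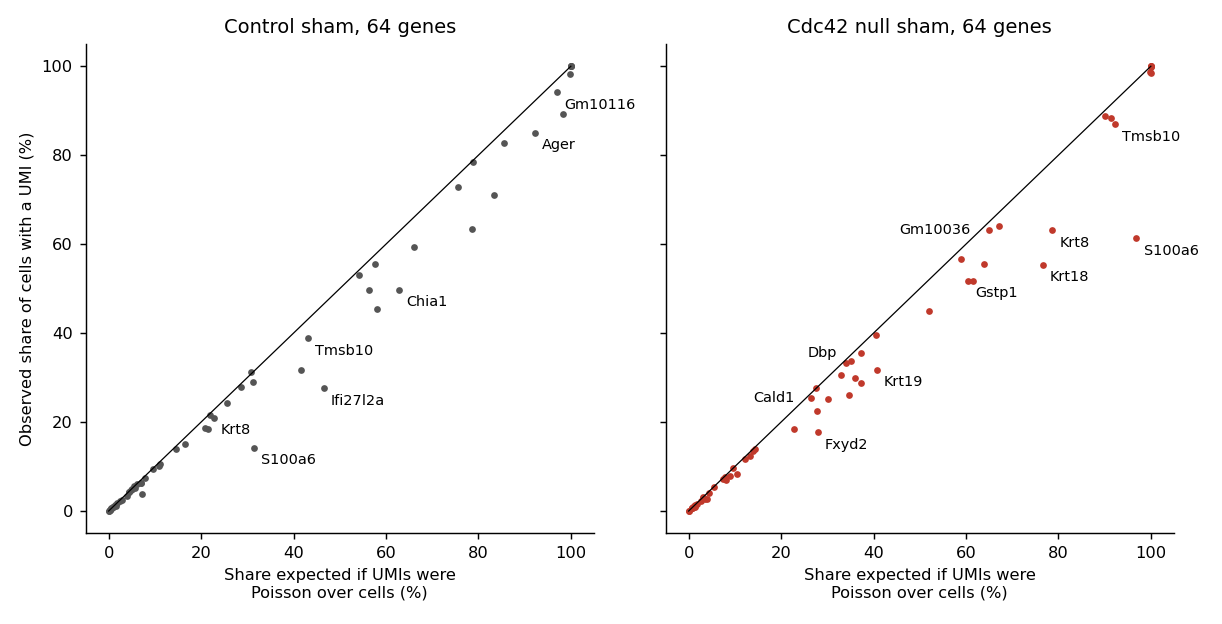
Share of cells with a UMI (y axis, %) against the share a Poisson distribution with the same mean gives (x axis, %), for 64 genes in 1553 control and 2458 null cells thinned to 2000 UMIs; the line marks equality. Tmsb10, Dbp and Cald1 lie near the line in null cells, while S100a6, Krt8, Krt18 and Fxyd2 lie well under it.

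Krt8 then served to order cells within each library. After thinning, 79.0% of control cells had 0 Krt8 UMIs, 17.5% had 1, 3.09% had 2 or 3 and 0.386% (6 cells) had 4 or more. Null cells were at 36.9%, 29.4%, 23.1% and 10.6%. Even where no Krt8 UMI was seen the null cells differed: S100a6 was at 150 CPM in control and 789 in null, Actg1 at 1062 and 2143, Tmsb10 at 277 and 1152, Sftpc at 124883 and 71223, Apoe at 905 and 241, and Ager at 1255 and 548. In null cells with 4 or more Krt8 UMIs, S100a6 reached 5289 CPM, Krt18 2935, Actg1 6013 and Lgals3 1119, with Sftpc at 58456 and Hc at 26.8. Sftpb hardly followed Krt8, at 16634 and 16504 CPM in null cells with 0 and with 4 or more. Tmsb10 rose with Krt8, though less than S100a6 or Actg1, through 1152, 1161, 1429 and 1703 CPM over the 4 classes of null cells. Krt8 was counted in the same cells, so this ordering is a description. A cell with 0 counted Krt8 UMIs may still hold the transcript.

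The shifts were also read among cells of like Sftpc share, since that share chose the cells and differed between libraries. The median share was 12.8% in control and 6.50% in null, so equal bands hold unlike parts of the 2 libraries. A band of 6% to 8% takes low control cells and middle null cells. The ratios below are thus a description and no check of the shifts. Between 6% and 8% Sftpc (182 control and 600 null cells) the ratio of Krt8 was 6.96, of S100a6 6.62, of Actg1 3.17, of Tmsb10 4.25, of Apoe 0.37 and of Ager 0.477. Between 10% and 15% (683 and 330 cells) they were 3.93, 3.88, 2.21, 3.76, 0.415 and 0.611. The size varied with the band: Krt8 and S100a6 had ratios of 7.95 and 22.6 between 4% and 6%, and 3.76 and 5.61 between 8% and 10%. Sftpb, nearly level over all cells, was higher in null cells of like Sftpc, with ratios of 1.38 and 1.47. Its level followed that of Sftpc: control cells of 6% to 8% Sftpc held 12299 CPM of Sftpb, against 14669 over all kept control cells. The lowest class, 2% to 4%, held 9 control cells, and there S100a6 was at 3701 CPM in control and 2825 in null.

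The libraries were also compared in cells with Ptprc and less than 2% Sftpc. There were 186 in control sham and 244 in null sham, with median depths of 3081 and 3244.5 UMIs. Cre acts in cells that express Sftpc, so where it has not acted these cells compare Cdc42flox/- with Cdc42flox/+. UMIs of AT2 genes are found in the Ptprc+ cells, as droplets take up free RNA and can hold 2 cells: Sftpc was at 8372 and 5161 CPM in them. A set of genes differed between these cells by nearly the factor seen in AT2 cells. Gm10116 had a ratio of 0.0978 in the Ptprc+ cells and 0.131 in AT2 cells, H2-Eb1 0.0235 and 0.0413, Rps27rt 0.369 and 0.274, Gm10036 3.3 and 3.2, and AY036118 5.64 and 6.26. Their levels in the Ptprc+ cells were as high as or higher than in AT2 cells, with Gm10116 at 2712 and 265 CPM against 1778 and 232. Mid1 was at 6.96 and 66.8 CPM against 4.94 and 46.1. Gstp1 (ratio 2.99 against 3.75) and Cd36 (1.77 against 1.53) were also higher in null Ptprc+ cells, at lower levels than in AT2 cells. Some genes of the set are copies of other genes: Gm10036 is annotated as a processed pseudogene, and Rps27rt is a retrogene copy of Rps27. The ratio of Rps27 itself was 0.721 in AT2 cells and 0.909 in the Ptprc+ cells. How the authors' counting shared reads between copies is not given, and its part in these ratios was not tested. AY036118 is a non-coding RNA on chromosome 17 (39847113 to 39848035).

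Actin genes differed less in those cells than in AT2 cells. The keratins Krt8, Krt18 and Krt7 differed more and Krt19 less. Tmsb10 had a ratio of 1.12 in Ptprc+ cells against 4.65 in AT2 cells, Actb 1.01 against 1.96, Pfn1 1.3 against 2.39, Hspa8 1.01 against 2.11 and S100a6 1.62 against 9.89. Apoe went the other way, 1.94 against 0.245. The ratios were 12.4 for Krt8, 11.4 for Krt18 and 12.4 for Krt7 in the Ptprc+ cells, against 6.68, 5.26 and 5.23 in AT2 cells. That of Krt19 was 5.46 in the Ptprc+ cells against 7.32 in AT2 cells, and that of Hspb1 was 22.5 against 5.18. Krt8 was seen in 4.84% of control and 22.1% of null Ptprc+ cells, at 27.8 and 346 CPM, compared with 40.2% and 84.1% of AT2 cells before thinning, at 135 and 899 CPM. Which cell types make up the Ptprc+ cells was not held equal between the libraries, and the part of that mix was not tested.

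**Figure D5:**
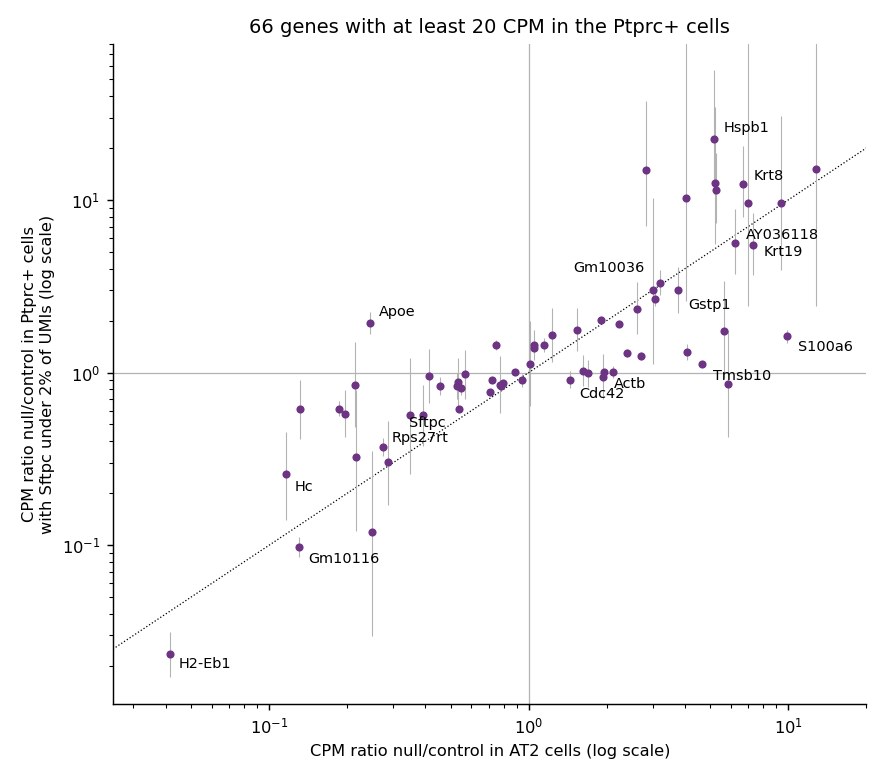
Ratio of null sham to control sham in AT2 cells (x axis) and in cells with Ptprc and less than 2% Sftpc (y axis, with exact 95% intervals for counting error), both on log scales, for 66 genes with at least 20 CPM in the Ptprc+ cells. H2-Eb1, Gm10116, Gm10036 and AY036118 lie near the dotted line of equal ratios, while Tmsb10 and Actb lie close to a ratio of 1 in the Ptprc+ cells and Krt8 and Hspb1 lie above the dotted line.

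Markers of other cell types were low in the kept cells in both libraries. Of the 14 macrophage markers, Lyz2, which AT2 cells also express, made up nearly all of the summed level of 27956 and 24704 CPM in control and null, and the complement genes C1qa, C1qb and C1qc were each under 10 CPM. The summed levels were 97.3 and 162 CPM for 8 neutrophil markers, 39.9 and 37.4 for T and NK cells, 29.6 and 23.5 for B cells, 36.5 and 38.2 for endothelium, 77.7 and 183 for fibroblasts, 246 and 197 for ciliated cells, 11.7 and 34.2 for platelets and 0.123 and 0.351 for red cells. For club and airway secretory cells it was 10106 and 10937, almost all Scgb1a1 and Cbr2, with Muc5b at 0 in both and Bpifa1 at 0 in null. The fibroblast sum rested on Gsn, Mgp and Inmt, with Col1a2 at 0 by the cell rule and Pdgfra under 1 CPM. Neutrophil, fibroblast and platelet sums were thus higher in null sham, and their part in the results was not tested.

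The PNX pair, which shares no library with the sham pair, gives the same genotype contrast in other animals. Of the 742 higher genes 416 (56.1%) were also at least 1.5 times higher in null PNX than in control PNX, where 28.1% of measured genes were, and 55 were lower. The 416 are 30.2% of the genes higher in the PNX pair. Of the 208 lower genes 104 (50%) were also lower, where 15.1% of measured genes were, and 22 were higher. The 104 are 14% of the genes lower in the PNX pair. Both null libraries lay above both control libraries for 582 of the 742 higher genes (78.4%), against 37.8% of all measured genes, and both lay below for 136 of the 208 lower genes (65.4%), against 13.6%. Part of this is built in, since a call in the sham pair already places 1 null library above or below 1 control library. Nothing is read from the difference. Surgery and genotype meet in that pair, so it is no replicate of the sham comparison.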

How the data were processed

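Raw UMI counts per gene and cell were deposited by the authors as whole numbers, not normalized. Per the submitters' processing notes the tools were Cell Ranger 2.1.0 and Seurat 2.3.4 and the build was mm10, without roles. The annotation release, like doublet handling, was not given in the sources used here. Each cell's library came from its barcode ending, as the labels state, and 0 cells and 0 columns were left without one.

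Cells were kept by the rule in the opening, and no doublet caller was run; leaving out cells over 2 times the median UMIs was an alternative. UMIs were summed per library and scaled to CPM with exact 95% Poisson intervals, and CPM ratios carry exact binomial intervals, tested on simulated data (Python 3.11.15, numpy 2.4.6, scipy 1.17.1, pandas 2.3.3). Median depth was 4823 and 5192 UMIs per cell, and 3 counts, the limit that a count of 0 allows, are 0.370 CPM in control sham and 0.211 in null sham. UMIs count molecules, but intervals still leave out differences between mice. For log2 ratios 0.5 was added to each count. Called means a CPM ratio of at least 1.5 or at most 1/1.5 among genes with 20 CPM in either sham library. Lists are described by counts and medians, with 43 lists in all, 33 of them not cell type markers.

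Named genes were a preset group of 20, the 15 highest and 15 lowest ratios, the 10 highest and 10 lowest among genes of at least 300 CPM (each with under 20% of its UMIs in 1 cell), and the extreme and most abundant members of lists; a few that met these rules are not reported here. The members and lists were chosen with earlier results of these data known. Of the measured genes 4770 matched GENCODE M21 by symbol and gave coordinates, and 122 did not. Promoters came from the RefSeq table for GRCm38.p6, the build of mm10. Alternatives were other cell limits, totals, scalings and folds.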

Additional observations from a re-analysis of the deposited data

Results flagged for a closer look

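Of the AT2 genes described in the text, 20 lay past the 1.5 limit in opposite directions in the sham pair and the PNX pair. Over all measured genes this held for 55 of the 742 higher and 22 of the 208 lower ones. The genes described were chosen, so nothing is read from the count of 20. The difference between the pairs was not tested, since each side is 1 library. The values below are PNX ratios, null PNX over control PNX.

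Lower in null sham but higher in null PNX were Pttg1, a securin of dividing cells (10.1), the proliferation marker Mki67 (3.26), Chil1 (1.80), Cdkn1a (2.04), Nupr1 (1.62), Cyr61 (10.0), H2-T23 (1.64) and the stress-induced factor Atf3 (6.27). The same order was seen for the immediate-early genes Ier2 (1.63), Fos (1.74), Jun (1.68) and Nr4a1 (2.16) and for the clock genes Arntl (1.73) and Nfil3 (2.93). Mki67, Cyr61, Arntl and Nfil3 were under 20 CPM in both sham libraries.

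Higher in null sham but lower in null PNX were 4 clock genes and outputs, Dbp (0.178), Nr1d1 (0.196), Tef (0.151) and Per3 (0.294), and 2 genes of the endoplasmic reticulum list, Herpud1 (0.468) and Creld2 (0.603).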

How the results depend on the processing

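Of 52 named genes past the limit, 49 to 52 were still past it in the same direction under each of the 11 alternatives. Much of this is built in, since most of them were named for extreme ratios in these same cells and lie far from the limit. Among measured genes, 742 were higher and 208 lower; the counts were 397 and 352 with ratios divided by their median, 188 and 68 at 100 CPM or more, 4138 and 2315 with no level filter, and 201 and 69 at a fold of 2. Without each gene's 10% highest cells the log2 ratio was -0.79 for Tpm2, -0.79 for Tnfsf9 and -0.81 for Cldn4, which under 10% of cells hold, so that setting removes all their cells with a UMI. Median log2 ratios changed sign for neutrophil markers (-0.25 with Sftpc at 0.5% of UMIs or more) and club markers (0.31 in cells with 0 Krt8 UMIs, 0.38 without the highest cells); the cause was not tested. No paired analysis was possible because each group is 1 library. Depth limits genes near 20 CPM: after thinning to 2000 UMIs such a gene is seen in few cells.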

Other observations

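Ion and fluid transport genes were higher in 4 of 11 measured members and lower in 0, or 2 and 1 after centring. Over all measured genes 15.2% were higher and 4.25% lower, or 8.12% and 7.2% after centring. Cftr, the chloride channel of alveolar fluid balance, was at 39.5 CPM in control sham, 94.6 in null sham, 54 in control PNX and 51.9 in null PNX, a sham ratio of 2.39. Glycolysis and hypoxia-type genes were higher in 4 of 15 measured members, also after centring: Pgk1 (3.43), Eno1 (2.83), Hk1 (2.47) and Gapdh (1.92). Each of these 4 was higher in both null libraries than in both control libraries, as were 37.8% of all measured genes. The list of inflammatory and acute-phase genes had 5 of 8 measured members higher, or 2 after centring, led by Cxcl2 (2.42) and Nfkbia (1.82).

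Metallothioneins, which bind zinc and copper, were higher, with Mt2 at 38.6 CPM in control sham, 127 in null sham, 32.1 in control PNX and 298 in null PNX (ratio 3.29) and Mt1 at a ratio of 1.76. Gsta1, a glutathione transferase, was under 20 CPM in both sham libraries but had a ratio of 44.4 (95% interval 12.1 to 369.7), on 2 control and 156 null UMIs. Rasl11a, a small Ras-like GTPase, was at 122 CPM in control sham, 5.69 in null sham, 84.8 in control PNX and 64.6 in null PNX, a sham ratio of 0.0467, and control sham and both PNX libraries were far above null sham. Rps2, a ribosomal protein gene, was highest of the 22 ribosomal genes in ratio, at 1.5 after rounding but just short of the limit. The Y-linked genes Ddx3y and Eif2s3y were at 33.6 and 33.7 CPM in control sham and 27.9 and 35.6 in null sham.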
